A study of Mus musculus with 16 samples.

Results

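The 10 genes described here, of 23284 gene symbols counted, encode subunits of the vacuolar proton pump (V-ATPase), and they were selected by name from the count table. They are the subunit a isoforms Atp6v0a1 (a1), Atp6v0a2 (a2) and Tcirg1 (a3), the subunit d isoforms Atp6v0d1 (d1) and Atp6v0d2 (d2), the catalytic and stalk subunits Atp6v1a (A), Atp6v1b2 (B2) and Atp6v1c1 (C1), and the subunit G isoforms Atp6v1g1 (G1) and Atp6v1g2 (G2). The selection was made with results of the comparison of SOD1 transgenic with non-transgenic Atg7 cWT cords in view, above all the level of Atp6v0d2. Values of that comparison are therefore descriptions with no test, and nothing is read from the number of members that differed in it.

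The lumbar spinal cord of 16 mice, all aged 150 days, was sequenced for poly-A RNA in 4 groups of 4 biological replicates. The groups were Atg7 cWT (called cWT), Atg7 cKO (cKO), Atg7 cWT with SOD1G93A (cWT_SOD1) and Atg7 cKO with SOD1G93A (cKO_SOD1). Atg7 encodes an enzyme needed to form autophagosomes, cKO is read here as conditional knockout, and SOD1G93A is a mutant superoxide dismutase transgene used as a mouse model of amyotrophic lateral sclerosis. The series title names motor neuron autophagy inhibition, but the labels name neither the Cre line, the cells in which Atg7 was deleted, the promoter of the transgene nor the strain of the mice.

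Total counts were between 14989026 and 20892530 per library, and each group held 2 male and 2 female animals by their sex-linked transcripts. Atg7 stood at 31.4 ± 2.51 CPM (counts scaled by library size) in cWT and 28.0 ± 1.06 in cKO, and at 24.1 ± 4.26 in cWT_SOD1 and 27.2 ± 4.50 in cKO_SOD1 (SD, n = 4). The cWT and cKO libraries did not overlap (29.7 to 35.1 against 26.4 to 28.8 CPM), whereas the transgenic groups did. Mouse Sod1 stood between 101 and 129 CPM in all 16 libraries and does not check the transgene. Among the cWT_SOD1 libraries, replicate 1 lay nearest to the other groups on the first principal component (53.1 against 66.0 to 87.5 for replicates 2 to 4), which held 71.4% of the variance. All 12 neuronal and all 12 microglia and macrophage markers examined were detected in each group.

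The pump is a rotary complex that spends ATP to carry protons into lysosomes, endosomes and synaptic vesicles. Its cytosolic V1 sector splits ATP at the A and B subunits, with C and G in the stalks that hold it in place, and its membrane V0 sector moves the protons through subunit a and a ring of c subunits, to which subunit d couples the rotor. Neurons depend on it to load synaptic vesicles with transmitter and are rich in a1 and G2, while a3 and d2 are best known from osteoclasts and macrophages.

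Atp6v0d2 (chr4:19803985-19849713, mm9), the alternative rotor-coupling subunit d, was close to absent from all but the cWT_SOD1 cords. Its raw counts were 0, 0, 0 and 0 in cWT, 6, 0, 2 and 2 in cKO, 88, 412, 375 and 250 in cWT_SOD1, and 11, 22, 8 and 4 in cKO_SOD1, in the order of replicates 1 to 4. All 4 cWT_SOD1 libraries lay above every other library, and replicate 1 was the lowest of them. On the CPM scale the group stood at 16.6 ± 7.92 in cWT_SOD1 and 0.592 ± 0.416 in cKO_SOD1 (SD, n = 4).

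The summed Atp6v0d2 counts of cWT_SOD1 (1125) were at least 410-fold higher than those of cWT after scaling for library size, taking 3 counts over the group as the limit that a sum of 0 allows. In cKO_SOD1 the summed counts (45) were 29.1-fold lower than in cWT_SOD1 (95% exact interval 21.6 to 40.1, counting error only). Against the 10 counts of cKO, those of cKO_SOD1 were 4.41-fold higher (2.19 to 9.82, counting error only). These intervals leave out the spread between animals and do not serve as a test. The cKO and cKO_SOD1 libraries overlapped, and no test is given because Atp6v0d2 passed the filter on low counts through cWT_SOD1 and was too low to test in these 8 libraries alone. Of the 10 counts of cKO, 6 were in replicate 1 and 0 in replicate 2. By the limit used above for a sum of 0, the cKO counts were at least 3.20-fold those of cWT, counting error only. The cKO and cWT libraries overlapped, so the 2 groups are not set apart by library. Atp6v0d1 (chr8:108048370-108089940), the ubiquitous d isoform, stayed the main form everywhere, at 203 ± 5.12 CPM in cWT, 199 ± 5.70 in cKO, 174 ± 7.65 in cWT_SOD1 and 186 ± 3.56 in cKO_SOD1.

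**Figure D1:**
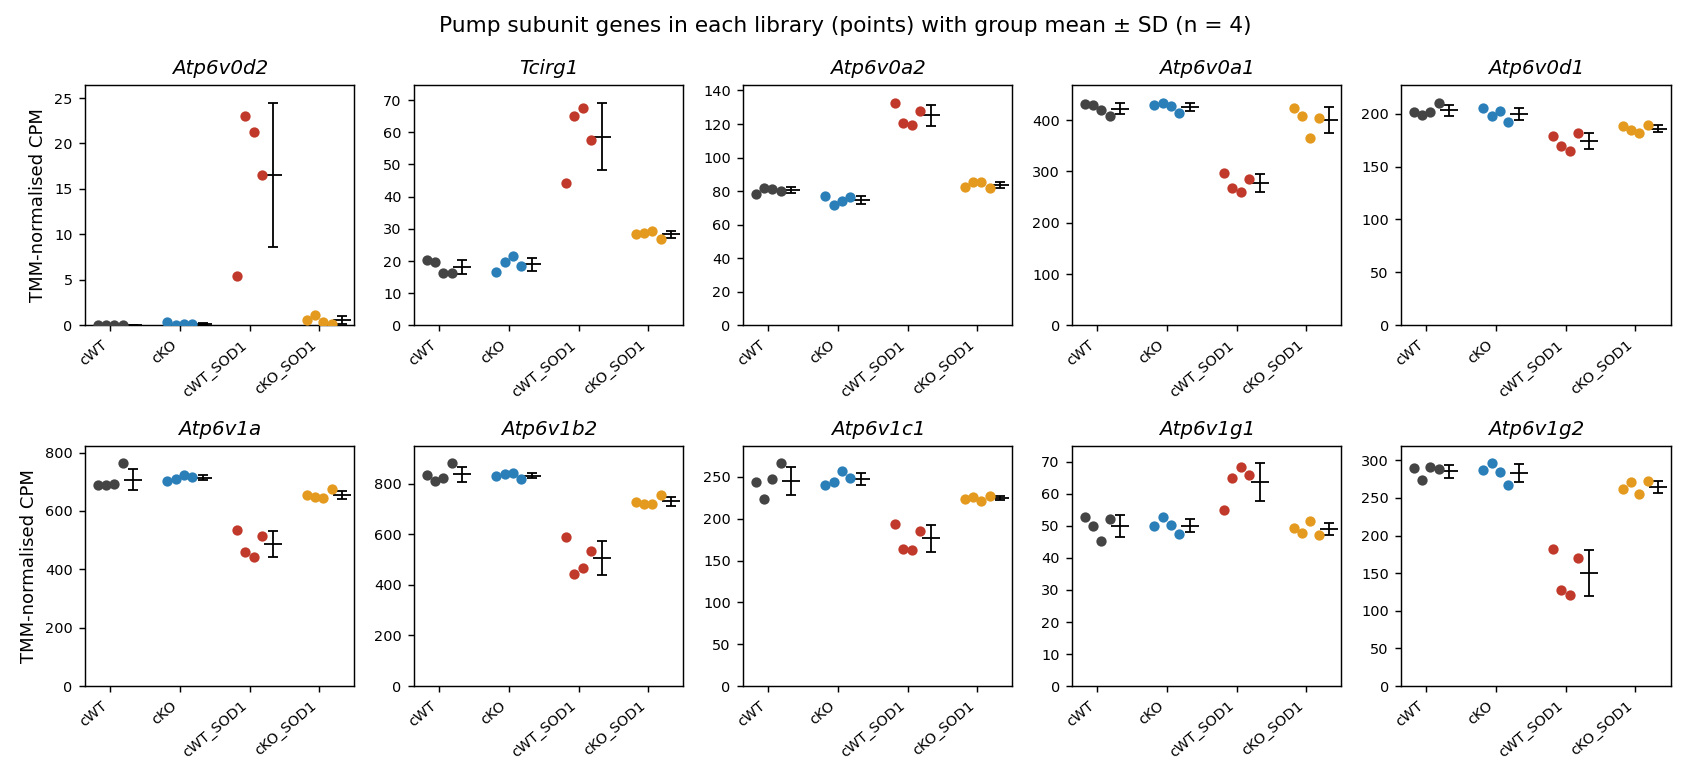
Each panel plots the TMM-normalised CPM of a pump gene in every library (points), by group, with the group mean and SD (bar, n = 4). The cWT_SOD1 libraries lie above those of cWT for Atp6v0d2, Tcirg1, Atp6v0a2 and Atp6v1g1 and below them for the other 6 genes, and the cKO_SOD1 mean lies nearer to that of cKO than to that of cWT_SOD1 for all but Atp6v0d1, where it lies about midway.

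Subunit a holds the path of the protons and sets to which membrane the pump goes. The transgenic Atg7 cWT cords carried more a2 and a3 and less a1. Tcirg1 (a3; chr19:3896050-3907133) stood at 20.2, 19.8, 16.2 and 16.2 CPM in cWT, 16.5, 19.6, 21.4 and 18.5 in cKO, 44.2, 65.1, 67.6 and 57.8 in cWT_SOD1, and 28.3, 28.7, 29.3 and 26.8 in cKO_SOD1. The cWT_SOD1 libraries were all higher than the rest, the cKO_SOD1 libraries formed a narrow middle band, and the cWT and cKO libraries overlapped. The cWT_SOD1 mean was 3.24-fold that of cWT (log2 fold change 1.70, SE 0.12).

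Atp6v0a2 (a2; chr5:125079648-125202517), an isoform known from Golgi and endosomal membranes, ran between 78.2 and 82.0 CPM in cWT, 71.8 and 77.0 in cKO, 119 and 133 in cWT_SOD1, and 81.6 and 85.3 in cKO_SOD1. As for Tcirg1, no cWT_SOD1 library reached down to another group. Its log2 fold change between cWT_SOD1 and cWT was 0.64 (SE 0.04). Of its transcript's 50-base stretches 10.8% also occur in the gene 4930404A12Rik, so part of its reads may have been assigned to either.

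Atp6v0a1 (a1; chr11:100870766-100925031), the isoform of synaptic vesicles, took the other direction. It stood at 431, 430, 419 and 408 CPM in cWT, 429, 433, 428 and 414 in cKO, 298, 268, 260 and 286 in cWT_SOD1, and 424, 407, 365 and 404 in cKO_SOD1. The cWT_SOD1 libraries were the lowest 4 of the 16, and the other groups overlapped. The log2 fold change of cWT_SOD1 against cWT was −0.60 (SE 0.05).

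Among the V1 genes, G2 and B2 lay furthest below cWT in the cWT_SOD1 cords. Atp6v1g2 (G2; chr17:35373541-35375712), the neuronal G isoform, stood at 289, 273, 291 and 288 CPM in cWT, 287, 296, 284 and 267 in cKO, 182, 128, 121 and 170 in cWT_SOD1, and 262, 271, 255 and 272 in cKO_SOD1. Its cWT_SOD1 mean was 1.90-fold below cWT (log2 fold change −0.93, SE 0.10), with replicates 1 and 4 closest to the other groups. Atp6v1g1 (G1; chr4:63205799-63211735), the widespread G isoform, went the other way, from 45.2 to 52.6 CPM in cWT to 55.1 to 68.5 in cWT_SOD1 (log2 fold change 0.35, SE 0.07). In cKO and cKO_SOD1 it ran from 47.2 to 52.8 CPM, within which cKO_SOD1 held the lowest value. Of its 50-base stretches 19.2% occur in Gm13453 or Gm12344, and its CPM per FPKM in cWT was 0.652 for a transcript of 1.135 kb. The part of shared reads in its level was not tested.

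Atp6v1a (A; chr16:44085517-44139132) and Atp6v1b2 (B2; chr8:71612635-71637616), which together form the ATP-splitting head, were lower in cWT_SOD1 to a similar degree. Subunit A stood at 708 ± 36.6 CPM in cWT, 713 ± 8.20 in cKO, 488 ± 44.3 in cWT_SOD1 and 655 ± 13.3 in cKO_SOD1. B2 stood at 836 ± 30.2, 831 ± 11, 507 ± 66.7 and 729 ± 16.4 CPM in the same groups, with cWT_SOD1 libraries at 589, 442, 465 and 533 (SD, n = 4). Atp6v1c1 (C1; chr15:38591659-38622199), the subunit that links the stalks and leaves when the pump comes apart, stood at 245 ± 17.3 CPM in cWT, 248 ± 7.10 in cKO, 177 ± 15.7 in cWT_SOD1 and 225 ± 2.59 in cKO_SOD1. The log2 fold changes of cWT_SOD1 against cWT were −0.54 for A (SE 0.06), −0.72 for B2 (SE 0.07), −0.47 for C1 (SE 0.06) and −0.22 for d1 (SE 0.04). The annotated locus of Atp6v1b2 overlaps Slc18a1 by 487 bases, and Slc18a1 itself had 7 to 34 counts per library.

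In all, 10 of the 10 members passed the filter on low counts and 10 met an adjusted p under 0.05 for cWT_SOD1 against cWT, 4 higher and 6 lower, where 66.3% of the 15426 genes tested met it (33.2% higher, 33.1% lower). The libraries of the groups did not overlap for any of the 10, as for 56.6% of the genes tested. Nothing is read from these counts, because the members were selected with this comparison in view. The counts include Atp6v0d2, which passed the filter through cWT_SOD1. The members' median log2 fold change was −0.35, against 0.01 over all genes tested. In these bulk samples fewer cells of a type and less RNA per cell cannot be told apart.

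The same transgene on the Atg7 cKO background, cKO_SOD1 against cKO, shares no library with the comparison used for the selection, although the fit takes its spread from all 16 libraries. There 2 of the 10 members passed the test, both subunit a isoforms and both higher, beside 7.28% of all genes tested (4.8% higher, 2.48% lower). The test was edgeR's quasi-likelihood F-test with Benjamini-Hochberg adjustment over all genes. Tcirg1 rose 1.49-fold (log2 fold change 0.57, SE 0.12, adjusted p = 0.00480), and each cKO_SOD1 library was above each cKO library. Atp6v0a2 rose 1.12-fold (0.16, SE 0.04, adjusted p = 0.0263), a call that did not hold without cKO replicate 2 or 3 or cKO_SOD1 replicate 2 or 3 (adjusted p from 0.0726 to 0.101).

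The remaining members did not pass in this fit. The log2 fold changes were −0.09 for a1 (SE 0.05, adjusted p = 0.350), −0.10 for d1 (SE 0.04, 0.154), −0.12 for A (SE 0.06, 0.235), −0.19 for B2 (SE 0.07, 0.119) and −0.14 for C1 (SE 0.06, 0.172). For d1, A, B2 and C1 all cKO_SOD1 libraries nevertheless lay below all cKO libraries, so that 6 members did not overlap, beside 20.9% of all genes tested. With only the 8 libraries of this comparison in the fit, those 4 subunits passed as lower (adjusted p = 0.0481 for d1, 0.0122 for A, 9.61e-04 for B2 and 0.0100 for C1), which made 6 of 9 members tested, beside 16.5% of the genes tested in that fit (8.2% higher, 8.27% lower). The G isoforms gave −0.03 for G1 (SE 0.07, adjusted p = 0.821) and −0.10 for G2 (SE 0.10, adjusted p = 0.599).

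**Figure D2:**
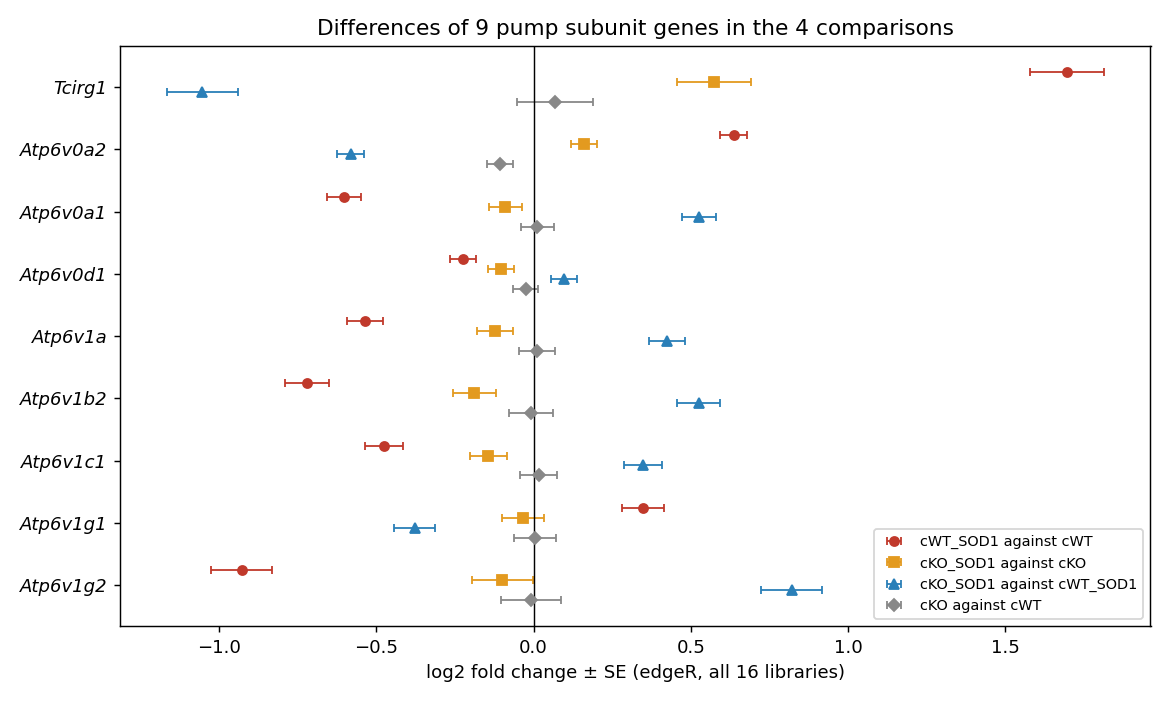
The x axis is the log2 fold change with its SE from the edgeR fit to all 16 libraries, and each row is a pump gene other than Atp6v0d2, with a symbol for each of 4 comparisons. The values for cWT_SOD1 against cWT (circles) and for cKO_SOD1 against cWT_SOD1 (triangles) lie on opposite sides of 0 and share the cWT_SOD1 libraries, while those for cKO_SOD1 against cKO (squares) run from −0.19 for Atp6v1b2 to 0.57 for Tcirg1.

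Without the transgene, cKO against cWT, none of the 10 members passed, where 0.0259% of all genes tested did (4 genes by edgeR, 0.00648% higher and 0.0194% lower). Atp6v0a2 was the 1 member with an unadjusted p under 0.05 (log2 fold change −0.11, SE 0.04, edgeR adjusted p = 0.9995). Its cKO libraries all lay below the cWT libraries, and 3.48% of all genes tested did not overlap in either direction. DESeq2 also called 0 members. For the members other than Atp6v0d2 the log2 fold changes ran from −0.11 to 0.07 with SE of at most 0.12.

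With the transgene on both sides, cKO_SOD1 against cWT_SOD1, the Atg7 cKO cords held less of the isoforms that were high in cWT_SOD1 and more of those that were low. This comparison uses the cWT_SOD1 libraries that were in view when the members were selected, so its p-values are not independent evidence. Of the 10 members 9 passed, 5 higher and 4 lower, beside 58.2% of all genes tested (29.1% in each direction). Nothing is read from that count, which includes Atp6v0d2. Tcirg1 fell 2.07-fold (log2 fold change −1.05, SE 0.11, edgeR adjusted p = 5.97e-07), a2 fell (−0.58, SE 0.04, 1.53e-08) and G1 fell (−0.38, SE 0.07, 9.02e-05). The fourth lower member was Atp6v0d2, which passed the filter on low counts through cWT_SOD1 and is described above by its counts.

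In the same comparison G2 rose 1.77-fold (log2 fold change 0.82, SE 0.10, edgeR adjusted p = 1.71e-06) and a1 rose 1.44-fold (0.53, SE 0.05, 3.34e-07). B2 rose 1.44-fold (0.52, SE 0.07, 5.46e-06), A rose 1.34-fold (0.42, SE 0.06, 7.81e-06) and C1 rose 1.27-fold (0.35, SE 0.06, 8.82e-05). For d1 the value was 0.10 (SE 0.04, adjusted p = 0.0539), which passed without cWT_SOD1 replicate 1 (0.0408) or 4 (0.0355) and with DESeq2 (0.0448).

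The difference between the transgene effects, the log2 effect in cKO minus that in cWT, contains the comparison used for the selection and is therefore given as a description with no p. Tcirg1 had the value furthest from 0 among the members with counts in every library (−1.12, SE 0.17), followed by G2 (0.83, SE 0.14). The others were B2 (0.53), a1 (0.51), a2 (−0.48), A (0.41), G1 (−0.38), C1 (0.33) and d1 (0.12). An adjusted p under 0.05 was met by 9 of 10 members, 5 above and 4 below 0, beside 45% of all genes tested (23.2% above, 21.8% below), and nothing is read from that count.

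Isoform make-up was described from the deposited FPKM values, which are scaled for transcript length and can be compared between genes. In cWT the FPKM level ran from B2 (322) down over G2 (216), A (183), d1 (140), C1 (127), a1 (107), G1 (76.7), a2 (26.9) and Tcirg1 (6.64) to d2 at 0, and no neighbours in that order overlapped between libraries. The order was the same in cKO and cKO_SOD1. In cWT_SOD1 it was B2 (202), A (131), d1 (124), G2 (117), G1 (102), C1 (94.1), a1 (72.8), a2 (43.4), Tcirg1 (22.2) and d2 (7.21). There the 5 genes from A to C1 overlapped with their neighbours, so their order is not resolved.

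The summed FPKM of the subunit a family was nearly level across groups while its make-up differed. It was 141 ± 3.86 in cWT and 138 ± 4.95 in cWT_SOD1 (SD, n = 4). By CPM, not scaled for length, the sum was lower in cWT_SOD1 (462 ± 13.4) than in cWT (521 ± 12.5), so the level total holds for FPKM only. Within the FPKM sum, a1 supplied 76.2% in cWT, 77.1% in cKO, 52.5% in cWT_SOD1 and 72.5% in cKO_SOD1. The a2 share was 19.1%, 17.8%, 31.3% and 20.1% in the same order. Tcirg1 supplied 4.71% ± 0.40 in cWT, 5.05% ± 0.55 in cKO, 16.1% ± 3.13 in cWT_SOD1 and 7.44% ± 0.52 in cKO_SOD1, and its cWT_SOD1 libraries ran from 11.9% in replicate 1 to 19.1% in replicate 3. These shares are descriptions with no test.

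Subunit G differed in its FPKM total as well. Its summed FPKM was 293 in cWT and 220 ± 19.9 in cWT_SOD1, and the G2 share was 73.8% ± 1.09 in cWT, 73.3% ± 0.45 in cKO, 52.9% ± 6.88 in cWT_SOD1 and 72.9% ± 1.11 in cKO_SOD1. By library the G2 share of cWT_SOD1 was 61.1%, 48.7%, 45.9% and 55.8%. Replicates 2 and 3 thus held more G1 than G2 by FPKM, but by CPM the G2 share was at least 63.8% in every cWT_SOD1 library. For subunit d, Atp6v0d2 supplied 1.83%, 7.68%, 7.34% and 5.32% in the cWT_SOD1 libraries and at most 0.384% in any library of the other groups. B2 and C1 supplied over 99.8% of their families in every library.

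**Figure D3:**
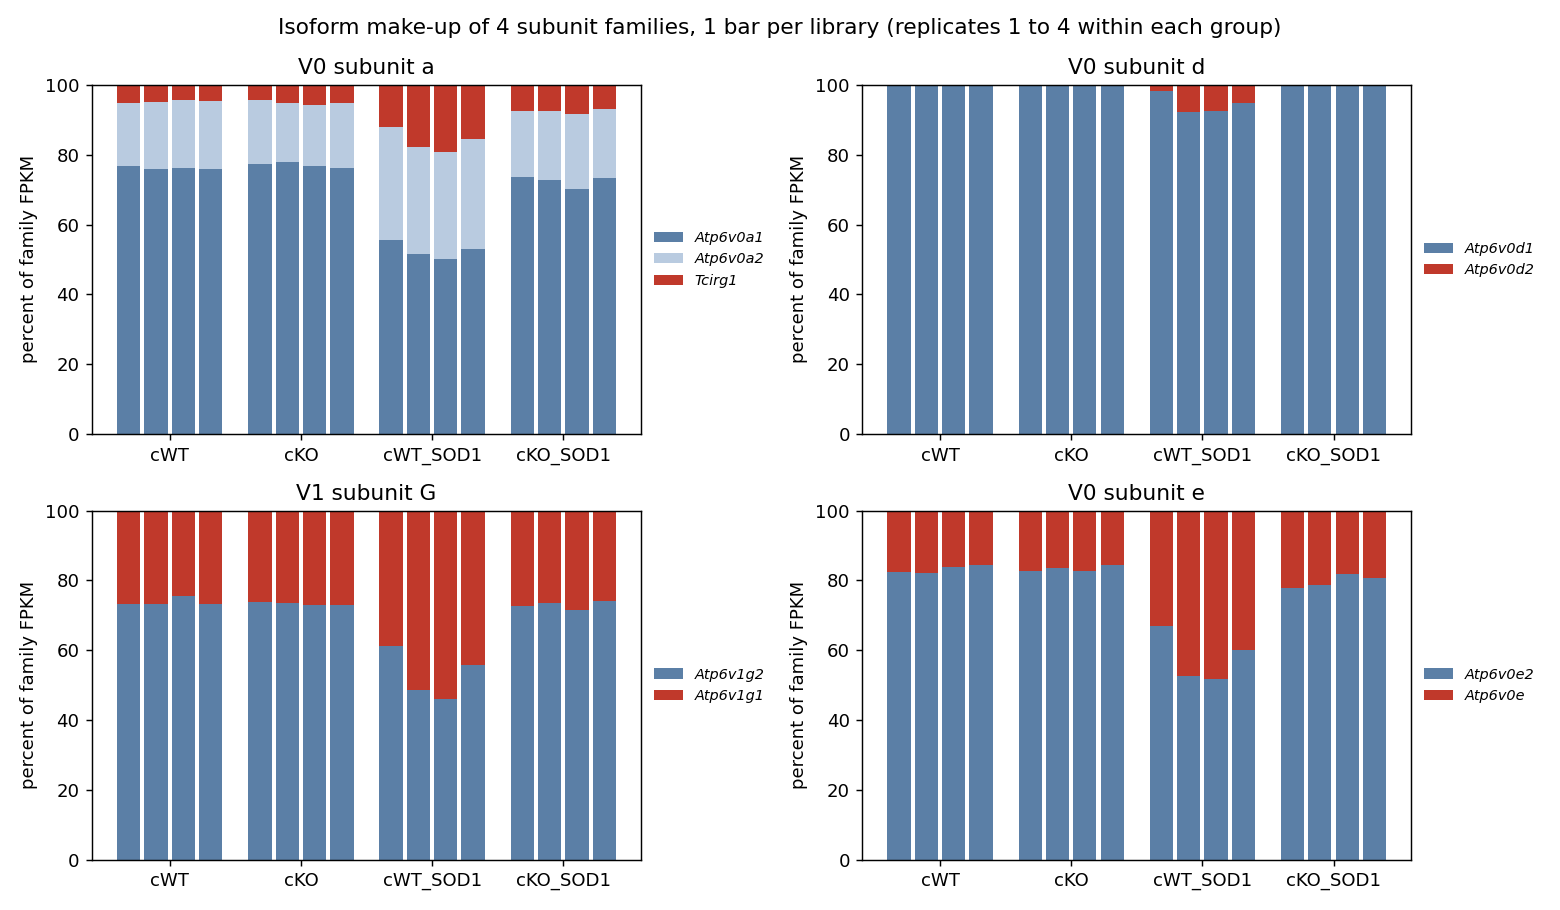
Each bar is a library and shows the percent of the summed FPKM of a subunit family held by each isoform, for subunits a, d, G and e. The Tcirg1 share of subunit a is between 11.9% and 19.1% in cWT_SOD1 and averages 7.44% in cKO_SOD1, and the G2 share of subunit G lies between 45.9% and 61.1% in cWT_SOD1.

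The pump needs further subunits, of which 17 were in the count table and 11 passed the filter on low counts. Of the 11, 1 rose and 6 fell in cWT_SOD1 against cWT, a share near the 66.3% of all genes tested that were called, with a median log2 fold change of −0.21. The 1 that rose was Atp6v0e, an isoform of the small membrane subunit e, which went from 23.0 ± 1.41 to 61.4 ± 13.1 CPM (2.67-fold, log2 fold change 1.42, SE 0.13, edgeR adjusted p = 3.58e-08), while its partner isoform Atp6v0e2 fell (−0.44, adjusted p = 2.86e-06). The Atp6v0e share of the summed FPKM of subunit e was 16.8% ± 1.05 in cWT, 16.6% ± 0.86 in cKO, 42.1% ± 7.09 in cWT_SOD1 and 20.2% ± 1.84 in cKO_SOD1. As for Tcirg1, the share was highest in cWT_SOD1 and next highest in cKO_SOD1.

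Also lower in cWT_SOD1 were the rotor subunit Atp6v1d (−0.52, edgeR adjusted p = 2.73e-06), the stalk subunit Atp6v1e1 (−0.39, 4.64e-05), the accessory subunit Atp6ap2 (−0.35, 1.19e-05), the regulatory subunit Atp6v1h (−0.21, 0.0267) and Rnasek (−0.20, 0.00519). Atp6v0b, Atp6v1f, Atp6ap1 and Atp6ap1l did not pass. On the Atg7 cKO background none of the 11 passed, where 7.28% of all genes tested did. In cKO_SOD1 against cWT_SOD1 Atp6v0e fell (−1.26, edgeR adjusted p = 3.15e-07), as did Atp6ap1 (−0.16, 0.00389), while Atp6v0e2, Atp6v1d, Atp6v1e1 and Atp6ap2 rose.

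Isoforms known from other tissues were barely present. Atp6v0a4, Atp6v1b1, Atp6v1c2 and Atp6v1e2, which are known from kidney, inner ear or testis, had at most 8 counts in any library, and Atp6v1g3 had 0 in all 16.

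**Figure D4:**
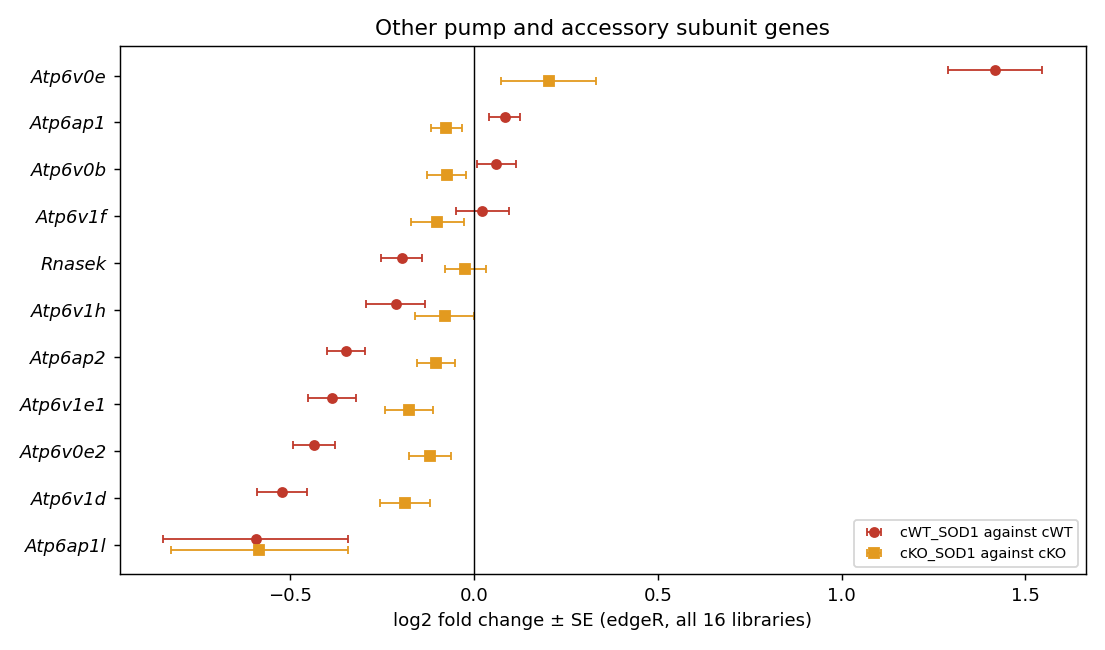
The x axis is the log2 fold change with its SE (edgeR, all 16 libraries) of the 11 tested subunits and accessory subunits outside the 10 members, for cWT_SOD1 against cWT (circles) and cKO_SOD1 against cKO (squares). Atp6v0e stands at 1.42 in the former comparison and 0.20 in the latter, while the other 10 lie between −0.59 and 0.08 in both.

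Genes that serve the pump were read from lists, whose counts for cWT_SOD1 against cWT stand beside 33.2% of all genes tested higher and 33.1% lower. These lists and the marker lists below were chosen with earlier results of these data known, so their p-values are not independent evidence. Of 10 genes for pump assembly and regulation, 0 rose and 8 fell in cWT_SOD1 against cWT, led by Dmxl2, a subunit of the RAVE-like complex that reassembles the pump (−0.90, edgeR adjusted p = 6.05e-09), and Ncoa7, a protein that binds the V1 sector (−0.82, 1.60e-08). On the cKO background Ncoa7 alone of the 10 fell (−0.23, edgeR adjusted p = 0.0451), beside 2.48% of all genes tested. In cKO_SOD1 against cWT_SOD1 7 of the 10 rose and 1 fell, beside 29.1% of all genes tested in each direction. The 3 tested MiT/TFE factors, which drive lysosomal genes, all rose slightly in cWT_SOD1, among them Tfe3 (0.34, 3.10e-05) and Mitf (0.26, 0.00696), and none passed on the cKO background.

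Among 13 tested lysosomal channels and transporters 5 rose and 6 fell in cWT_SOD1, where 66.3% of all genes tested were called, and the counts of the next lists stand beside the same share. The leading pair moved apart, with the proton-coupled amino acid transporter Slc36a1 lower (−0.72, edgeR adjusted p = 1.76e-08) and the lysosomal cation channel Tpcn2 higher (1.79, 2.75e-08). Of 10 Ragulator and Rag genes, the nutrient-sensing platform that binds the pump, 2 rose and 6 fell, led by Rragb (−0.85, 3.94e-08) and Slc38a9 (−0.38, 5.90e-05). Of 7 tested transmitter transporters that use the proton gradient of vesicles 1 rose and 4 fell, led by Slc18a3 of cholinergic vesicles (−1.74, 1.46e-09) and Slc17a6 of glutamatergic vesicles (−1.17, 3.20e-08). Slc18a3 also fell on the cKO background (−1.19, 7.00e-06).

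Cell type markers moved with the pump isoforms. The summed level of the 12 microglia and macrophage markers was 363 to 411 CPM in cWT, 357 to 489 in cKO, 1973 to 3121 in cWT_SOD1 and 738 to 800 in cKO_SOD1. All 12 rose in cWT_SOD1 against cWT and 10 of 12 in cKO_SOD1 against cKO (median log2 fold changes 3.0 and 1.02). Of all genes tested, 33.2% and 4.8% rose in these comparisons. Among the markers that rose was Trem2, a receptor of microglia and macrophages (4.33 and 1.65, edgeR adjusted p = 1.09e-11 and 2.50e-05). The summed level of the 12 neuronal markers was 13057 to 13810 CPM in cWT, 12469 to 13014 in cKO, 4642 to 6831 in cWT_SOD1 and 9202 to 9954 in cKO_SOD1. All 12 fell in cWT_SOD1 against cWT and 6 of 12 in cKO_SOD1 against cKO, beside 33.1% and 2.48% of all genes tested.

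The order of the cWT_SOD1 libraries was the same for the markers and for the isoforms on several points. Replicate 1 had the lowest microglia and macrophage sum and the lowest Atp6v0d2 and Tcirg1, replicate 4 came next in each, and replicates 1 and 4 had the highest G2. On other points the orders differed. In cWT_SOD1 that sum was highest in replicate 2 (3121) but Tcirg1 in replicate 3 (67.6 CPM). In cKO_SOD1 Atp6v0d2 was highest in replicate 2 (22 counts), where the sum was lowest (738). There Tcirg1 was highest in replicate 3 (29.3 CPM) and the sum in replicate 1 (800). The first principal component of all genes tested put cWT_SOD1 replicates 1, 4, 2 and 3 at 53.1, 66.0, 83.1 and 87.5. The points shared by markers and isoforms are thus not particular to these genes. The part of the cell types in the isoform differences was not tested. All 8 motor neuron markers fell in both transgene comparisons, beside the same 33.1% and 2.48% of all genes tested. Their sum was 133 to 183 CPM in cWT_SOD1 and 162 to 212 in cKO_SOD1. Between those groups 1 of the 8 was higher and 2 were lower in cKO_SOD1, where 58.2% of all genes tested were called. Among them were Slc5a7, the choline transporter (0.79, edgeR adjusted p = 8.66e-05), and Chodl, a marker of fast motor neurons (−0.68, 0.00302). Chodl was also lower without the transgene, in cKO against cWT (−0.75, edgeR adjusted p = 0.0113), where 0.0259% of all genes tested were called.

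**Figure D5:**
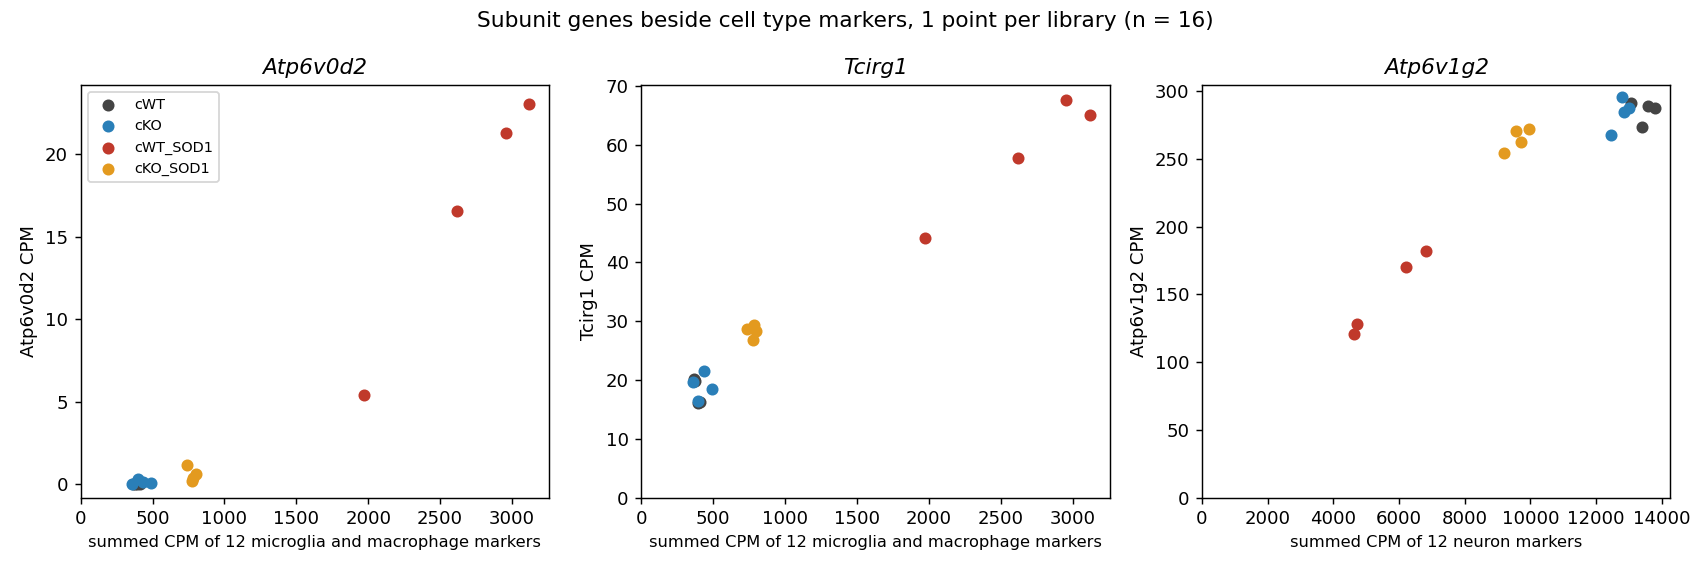
Each point is a library (n = 16), with the CPM of Atp6v0d2, Tcirg1 or Atp6v1g2 on the y axis and the summed CPM of 12 microglia and macrophage markers (left and middle) or 12 neuronal markers (right) on the x axis. The cWT_SOD1 libraries stand apart on both axes, and cWT_SOD1 replicate 1 has the lowest marker sum (1973) and the lowest Atp6v0d2 (5.41) of its group.

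Since Atp6v0d2 and Tcirg1 are known from osteoclasts, 10 osteoclast genes were read as well. Their summed level was 46.9 to 54.2 CPM in cWT and 49.2 to 68.9 CPM in cWT_SOD1. Of 7 tested, 3 rose and 1 fell in cWT_SOD1 against cWT, where 66.3% of all genes tested were called. The osteoclast transcription factor Nfatc1 was higher (1.61, edgeR adjusted p = 4.08e-09) and the protease Mmp9 lower (−2.34, 4.72e-12). Also higher were Tnfrsf11a (15.1 CPM against 6.21 in cWT) and Itgb3 (0.35, edgeR adjusted p = 0.0361). Ctsk, Calcr and Oscar did not pass (edgeR adjusted p = 0.0699, 0.85 and 0.582). Acp5, Tm7sf4 (Dcstamp) and 4833422F24Rik (Ocstamp) were too low to test. Acp5, the osteoclast acid phosphatase, had 12 summed counts in cWT, 15 in cKO, 77 in cWT_SOD1 and 18 in cKO_SOD1, and the other two had at most 11 in any group. None of the 10 was at 0 in all libraries of a group.

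The genes whose pattern over the 16 libraries was most like a member were found by the root mean square difference of centred log2 CPM among 14369 genes. For Atp6v0d2 they were Gpnmb, a glycoprotein of lysosomes (0.53), Igfbpl1 (0.70), the transglutaminase Tgm1 (0.78), Wisp2 (0.79) and the inhibitory myeloid receptor Lilrb4 (0.80). Gpnmb averaged 3.80 CPM in cWT, 5.84 in cKO, 599 in cWT_SOD1 and 28.7 in cKO_SOD1. Igfbpl1 and Wisp2 reached the mean of 1 CPM needed here through cWT_SOD1, where they averaged 23.0 and 20.4 CPM. In cKO_SOD1 they averaged 1.06 and 1.32 CPM, and in cWT and cKO less. Nothing is drawn from this likeness, as Atp6v0d2 was selected for its level in cWT_SOD1. For Tcirg1 they were Glb1l (0.10), the actin-binding Flna (0.10), the protease Bmp1 (0.11), Tpcn2 (0.11) and Stxbp2 (0.12).

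For Atp6v1g2 the differences were smaller still, at 0.05 for each of Prepl, 6330439K17Rik, Brsk2, Syp and Cyfip2. Syp encodes synaptophysin, the membrane protein of synaptic vesicles, and is also on the neuronal marker list. It averaged 916 CPM in cWT, 930 in cKO, 469 in cWT_SOD1 and 820 in cKO_SOD1, beside 285, 284, 150 and 265 for Atp6v1g2.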

How the data were processed

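Per the labels' protocols, lumbar cord RNA was extracted with TRIzol and an RNeasy kit, and TruSeq libraries were prepared from its poly-A fraction. The submitters' processing notes name bcl2fastq 1.8.4, TopHat2 2.0.4, Cufflinks 2.0.2 and mm9, with no role for each. How reads were counted, with or without strand, is not given in the sources used here. The authors deposited raw counts per gene symbol and FPKM values, and the per-library FPKM tables held values identical to the combined table in all 379184 entries.

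Tests on counts used edgeR 4.0.16 under R 4.3.3 (glmQLFTest after TMM scaling and filterByExpr) with 1 coefficient per group over all 16 libraries. Benjamini-Hochberg adjustment ran over 15426 genes (threshold 0.05), and the procedure was tested on simulated data. The SE of a log2 fold change is its size over the root of F. CPM uses TMM library sizes, and shares are percent of a family's summed FPKM. Count ratios have exact 95% intervals. Alternatives used DESeq2 1.42.0, limma 3.58.1 on log2(FPKM + 0.1) or + 1, other normalisation and filters, only the compared libraries, a replicate block, sex, and each library left out. Totals of 14989026 to 20892530 counts set the precision of low genes.

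The members and lists were chosen with earlier results of these data known. The genes named are the 10 members, every other measured pump subunit, the 2 tested genes with the smallest p of each other list, and the 5 genes most like Atp6v0d2, Tcirg1 and Atp6v1g2 among those with a mean of at least 1 CPM (log2 CPM with a prior count of 2). Cell type genes beyond these, Atg7 and Sod1 were named for the check they serve. Library pairs differed by more than sampling noise (mean chi-square per gene 2.88 to 40.8). Loci are from the deposited FPKM tables (mm9), and 50-base matches are from the GENCODE transcripts of GRCm38, without coordinates. Transcript sequences are not reported here.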

Additional observations from a re-analysis of the deposited data

Results flagged for a closer look

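For 9 members the interaction of transgene and Atg7 genotype met an adjusted p under 0.05, which is no independent evidence because the members were selected with the cWT_SOD1 and cWT values in view. The log2 effect in cKO minus that in cWT was 0.51 for Atp6v0a1, −0.48 for Atp6v0a2, −1.12 for Tcirg1, 0.41 for Atp6v1a, 0.53 for Atp6v1b2, 0.33 for Atp6v1c1, −0.38 for Atp6v1g1 and 0.83 for Atp6v1g2. For Atp6v0d2 the fitted value was −9.16, which depends on the prior count because cWT had 0 counts, and it did not pass without cKO replicate 1.

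In cWT, Atp6v1a stood at 763 CPM in replicate 4, apart from the other 3 libraries, of which the next highest had 691. It was the 1 such case among 39 groups of 4 libraries examined, and chance alone flags about 1 in 20.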

How the results depend on the processing

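No alternative run reversed a member that passed. For cKO_SOD1 against cKO, the count of members called was 2 in the fit reported, 1 with no filter on low counts (adjusted p of Atp6v0a2 0.0523) and 6 with only the compared libraries, which called 2480 genes against 1123. Leaving out a library gave 1 to 2 members and 685 to 991 genes there, with the lowest gene count without cKO replicate 2. For cKO against cWT, 4 genes were called in the fit reported, 17 with DESeq2, 9 with only the compared libraries and 2 to 6 with a library left out. Members called with a library left out numbered 9 to 10 for cKO_SOD1 against cWT_SOD1 and 8 to 9 for the interaction. Between the groups compared, deviations of same-numbered libraries correlated with either sign (−0.25 to 0.30; 0.19 to 0.31 between cWT and cKO_SOD1, which were not compared), so the numbers were not taken as pairs. With the replicate number as a block, the members called were 10, 2, 0, 9 and 9 for the transgene comparisons (cWT, then cKO), the cKO comparisons (without, then with it) and the interaction, as in the fit without a block. The block or sex as a covariate changed no member's call. Shares from CPM, not scaled for length, were 3.47%, 3.66%, 12.8% and 5.53% for Tcirg1 and 85.1%, 85.0%, 69.7% and 84.4% for Atp6v1g2 (cWT, cKO, cWT_SOD1, cKO_SOD1), and 8.67% for Atp6v0d2 in cWT_SOD1. The deposited counts and FPKM also differ for some genes beyond length, as for Atp6v0c. With a cWT_SOD1 library left out, the FPKM share of Tcirg1 in that group was 15.1% to 17.5% and that of Atp6v0d2 4.83% to 6.78%.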

Other observations

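Among cell types that the pump isoforms are less known from, 6 of 8 astrocyte markers rose in cWT_SOD1 against cWT, led by Gfap (log2 fold change 3.17, edgeR adjusted p = 8.90e-13). Of 8 oligodendrocyte markers 1 was higher and 4 were lower, and of 7 endothelial markers 1 was higher and 2 were lower. Of all genes tested 66.3% were called there (33.2% higher, 33.1% lower).

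Atp6v0c, the gene of the proton-carrying c ring, had 11 counts summed over the 16 libraries, yet its deposited FPKM ran from 234 to 491, with means of 413 ± 75.3 in cWT and 305 ± 62.4 in cWT_SOD1 (SD, n = 4). Of 7473 symbols with a mean FPKM of at least 10, 31 (0.415%) had at most 16 summed counts. Of the 50-base stretches of its transcript 32.5% occur in Atp6v0c-ps2 or Atp6v0c-ps1, whose listed mm9 locus overlaps its own by 5508 bases for the former. The c subunit was not compared between groups.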
